A study of Mus musculus with 33 samples.

Results

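Mouse retinal progenitor cells kept under cone-inducing conditions were compared between day 5 and day 12 of induction. The comparison covers 6 RNA sequencing libraries, 3 at each day, chosen by their labels from the 33 libraries (11 groups of 3) of the series. All cells came from C57BL/6J retina at embryonic day 14. The cone cultures had been treated with COCO, the protein of the mouse gene Dand5, which is secreted and blocks ligands of the TGF-beta, BMP and Wnt families. The rod cultures used for contrast (3 libraries at day 5 and 3 at day 12) had instead been treated with taurine and retinoic acid. No sorting, transgene or selection is named in the labels, so each library is read here as the whole culture. The labels give neither the culture medium nor how long each factor was present. They also do not say whether libraries of a group came from separate cultures or litters, so p-values measure only the spread between these libraries.

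The embryonic retina is built by a pool of dividing progenitors that express Pax6 and Rax. These leave the cell cycle in a set order to become ganglion cells, cones, horizontal and amacrine cells, and later rods, bipolar cells and Muller glia. Photoreceptor precursors switch on Otx2 and then Crx, a homeodomain factor that drives many photoreceptor genes, and Nrl with Nr2e3 then commits a precursor to the rod fate. Nestin and GFAP are intermediate filaments of progenitors and reactive glia, and TGF-beta is a known inducer of contractile and matrix genes.

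The cone cultures changed widely between these days. Of 18150 genes tested, 7840 (43.2%) were called at an adjusted p under 0.05 by edgeR's quasi-likelihood test with Benjamini-Hochberg adjustment over all genes, which is the edgeR adjusted p given throughout. Calls comprised 4458 genes higher at day 12 (24.6% of all tested) and 3382 lower (18.6%). A change of at least 2-fold was carried by 2597 of the genes called higher and 1507 of those called lower, and of at least 8-fold by 531 and 198. The median log2 fold change over all genes was 0.03. From 36 lists of markers and pathways, 503 genes were tested, of which 211 were higher and 108 lower. The counts of each list below stand beside 24.6% higher and 18.6% lower among all genes. The 3 libraries of a day did not overlap with those of the other day for 55.3% of all genes tested. Levels are CPM, read counts relative to library size, on library sizes scaled by TMM, and values of a group are listed in the order of replicates 1, 2 and 3.

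**Figure D1:**
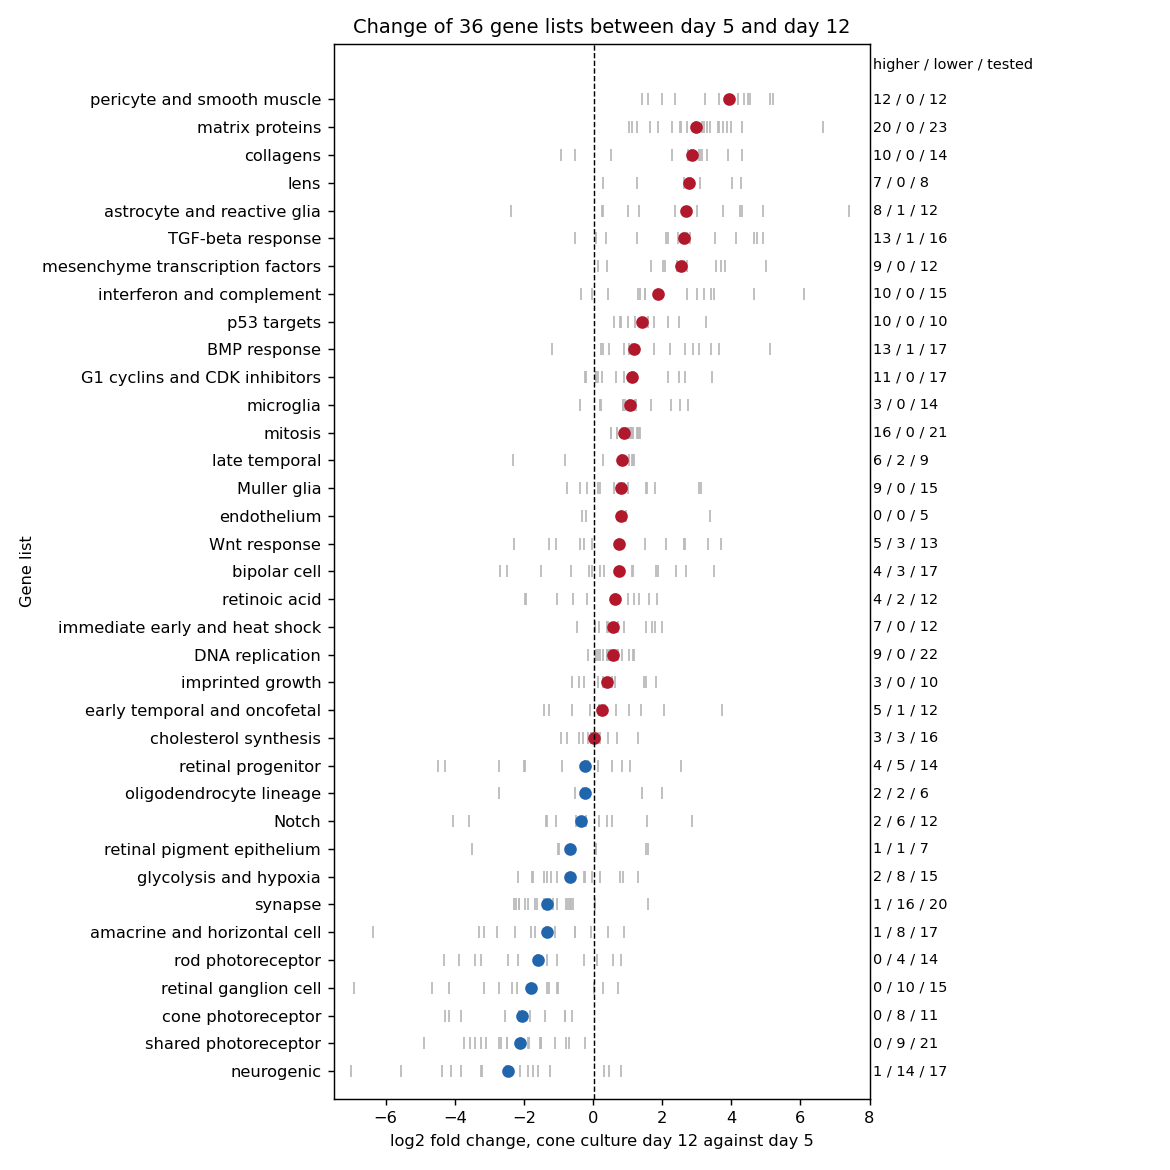
Fitted log2 fold change from day 5 to day 12 of the cone culture for 36 gene lists (rows). Each grey tick is 1 tested gene, each dot the list's median (red above 0, blue below 0), the dashed line the median of all genes, 0.03, and the numbers at the right are the members called higher, called lower and tested; contractile, matrix and collagen lists lie highest (medians 3.92, 2.99 and 2.86) and the neurogenic list lowest (-2.46 as fitted, -2.12 with the gene that had no reads at day 12 set to its bound).

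The 6 libraries held 9214279 to 14498049 counts in genes, with 21767 to 23476 genes detected. Mitochondrial genes took 10.2% to 10.5% of gene counts at day 5 and 14.5% to 18.6% at day 12, and the 10 genes with the most counts took 26.3% to 26.9% and 32.9% to 34.3%. These shares separate the days completely. With library sizes scaled without mitochondrial genes and the 10 highest genes, 4112 genes were called higher and 3909 lower, with a median log2 change of -0.03. Of the calls, 51.3% were then higher, against 56.9% in the main fit, so the excess of higher over lower calls depends on the scaling. Any other part of these shares in the results was not tested. Principal component 1 (60.2% of the variance over all libraries) put the day 5 libraries at -82.6 to -65.3 and the day 12 libraries at 61.0, 34.6 and 69.3. Replicate 2 of day 12 lay nearest to day 5 on it. Lists of shared and rod photoreceptor, ganglion, amacrine and horizontal, bipolar and Muller glia genes are given with and without that library. Libraries are bulk samples, in which fewer cells of a type and less RNA per cell cannot be told apart.

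Of 46 photoreceptor genes tested, 21 were called lower at day 12 and 0 higher. Of 21 tested genes shared by rods and cones, 9 were called lower and 0 higher, with a median log2 change of -2.12 (16 lower with a replicate block and 18 by voom). Otx2, the homeobox gene that starts photoreceptor specification, was read at 302, 307 and 321 CPM at day 5 and 12.5, 41.5 and 14.8 CPM at day 12, a log2 fold change of -3.74 ± 0.50 (SE; edgeR adjusted p = 1.2e-06). Every day 12 library was below every day 5 library, and replicate 2 was the highest at day 12. Crx, which Otx2 activates, went from 577, 698 and 638 to 38.4, 129 and 34.4 CPM (log2 change -3.24 ± 0.65, edgeR adjusted p = 0.000237). Its groups did not overlap either, and replicate 2 again stood above the other day 12 libraries. Prdm1, which keeps Otx2-positive cells from becoming bipolar cells, stood at 164, 186 and 221 CPM and then at 5.71, 8.62 and 4.95 CPM (-4.88 ± 0.62, edgeR adjusted p = 6.7e-07). Here the day 12 libraries lay in a narrow band. Neurod1, a helix-loop-helix factor of photoreceptors, changed by -3.40 ± 0.64 (edgeR adjusted p = 0.000115). The other called members were Pdc (phosducin), Rom1 (a disc rim protein), Tulp1 and Unc119 (protein transport to the outer segment) and Prom1 (disc formation), with log2 changes from -3.55 to -1.87.

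The remaining 12 tested members of the shared list had estimates below 0 and did not pass, and Guca1a had too few reads to be tested. Rbp3, the retinoid carrier between photoreceptors and pigment epithelium, was at 960.4, 942 and 622 CPM and then 40.7, 373 and 36.8 CPM (log2 change -2.48 ± 1.02, edgeR adjusted p = 0.0504). Replicate 2 of day 12 stood between day 5 and the other day 12 libraries, and the groups did not overlap. Summed over the list, the levels were 4957, 6486 and 4306 CPM at day 5 and 320.7, 2010 and 351 CPM at day 12. Without replicate 2 of day 12, 18 members were called lower and the median was -3.59.

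Rod genes showed the same split within day 12. Of 14 tested members, 4 were called lower and 0 higher, with a median of -1.60 (9 lower by voom and 2 by DESeq2). Nrl, the leucine zipper factor that sets the rod fate, was at 120.2, 149.5 and 113 CPM at day 5 and 0.816, 15.1 and 2.47 CPM at day 12 (log2 change -4.33 ± 1.13, edgeR adjusted p = 0.00289). Its groups were separate, while the day 12 libraries themselves spanned more than 10-fold. Nr2e3, the nuclear receptor that represses cone genes in rods, was at 187, 261 and 179.9 and then 2.68, 33.1 and 6.34 CPM (-3.87 ± 1.37, edgeR adjusted p = 0.0246). Samd7, a partner of the Polycomb complex in rods, changed by -3.24 ± 0.84, and Pde6b, the rod phosphodiesterase subunit, by -3.41 ± 1.25. Nr2e3 and Pde6b lost their calls in several alternatives, with an edgeR or DESeq2 adjusted p of up to 0.0938 and 0.109. Gnat1, rod transducin, did not pass, with 10.2, 54.5 and 7.73 CPM at day 5 and 3.73, 47.6 and 8.89 CPM at day 12 (edgeR adjusted p = 0.857). Its groups overlapped, and replicate 2 was the highest library at either day. Without replicate 2 of day 12, 9 rod members were called lower and the median was -3.56, and without replicate 1 or 3 of day 12 only 2 were.

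Most cone genes fell, in a culture treated to induce cones. Of 11 tested members, 8 were called lower and 0 higher, with a median of -2.07. Over the same interval in the rod culture, the list's median was -1.13, with 0 members called in either direction. The difference between the cultures was called for 0 members. Thrb, the thyroid hormone receptor that specifies green cones, was at 50.6, 64.4 and 44.4 CPM and then 17.7, 33.8 and 9.05 CPM (-1.39 ± 0.43, edgeR adjusted p = 0.00958, 0.0648 without replicate 3 of day 12). Its day 12 libraries were all below its day 5 libraries. Opn1sw, the blue cone opsin, was at 18.7, 5.96 and 9.76 and then 0.117, 1.86 and 0.309 CPM (-3.82 ± 0.97, edgeR adjusted p = 0.00266). The groups did not overlap, and the highest day 12 value was again replicate 2. Gngt2, the gamma subunit of cone transducin, went from 50.5, 34.5 and 44.5 to 1.52, 4.74 and 0.773 CPM (-4.17 ± 0.72, edgeR adjusted p = 5.1e-05). Kcne2, a potassium channel subunit, changed by -4.29 ± 0.66, the cone channel subunit Cngb3 by -2.15 ± 0.54 and Gnb3, a cone transducin subunit, by -1.83 ± 0.56. Rxrg and Cnga3 were low at both days and were also called lower. Arr3 (cone arrestin) was at 1.87, 2.61 and 2.67 and 1.28, 2.17 and 0.619 CPM, and Gnat2 (cone transducin) at 10.2, 7.17 and 6.8 and 2.8, 9.09 and 1.78 CPM. Their groups overlapped and neither passed (edgeR adjusted p = 0.34 and 0.227), nor did Pde6c. Opn1mw, the green cone opsin, had 0 counts in all day 5 libraries and 2 counts in all at day 12. Without replicate 3 of day 12, 5 cone members were called lower.

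**Figure D2:**
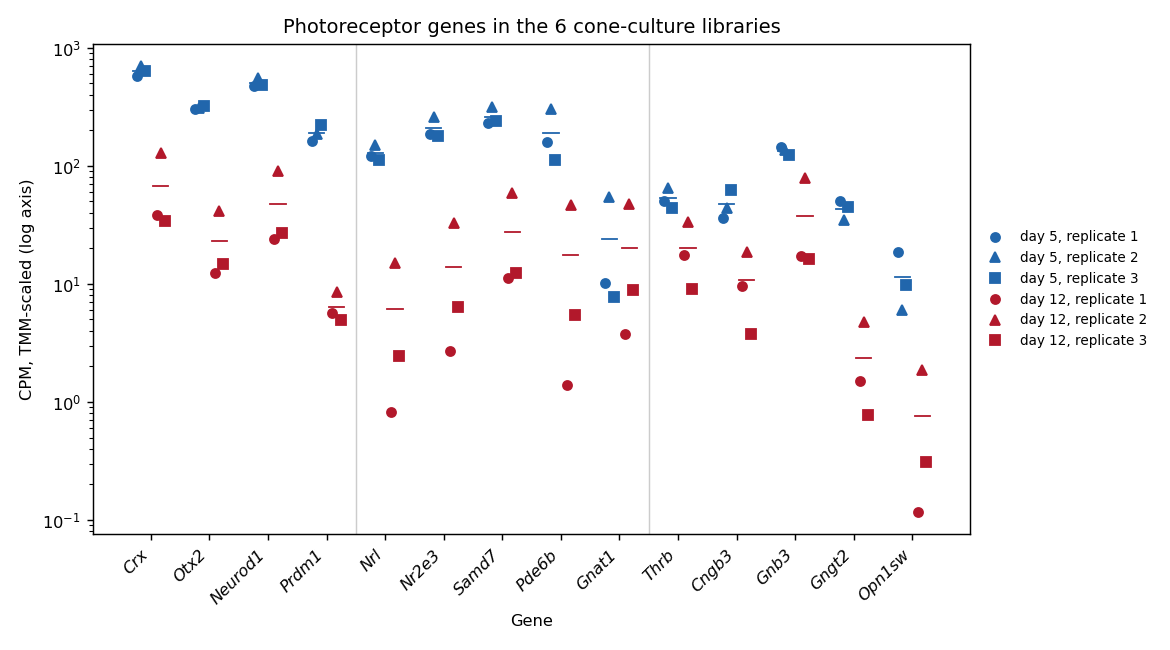
Level of 14 photoreceptor genes in each library of the cone culture (CPM, log axis), blue at day 5 and red at day 12, with symbols for replicates 1 to 3 and a line at each group's mean; vertical lines part shared, rod and cone genes. Day 12 lies below day 5 for Crx, Otx2, Neurod1, Prdm1 and Nrl in every library, replicate 2 of day 12 (triangles) is the highest red point for each gene shown, and Gnat1 overlaps between days.

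The start of Crx holds copies of the motif TAATCC that Crx and Otx2 proteins are known to bind. The window printed is the 200 bases before the RefSeq start of Crx (minus strand, GRCm38.p6 chr7:15879956-15880155), with the motif's reverse complement GGATTA in capitals at -94 and -21 from the start.
Crx: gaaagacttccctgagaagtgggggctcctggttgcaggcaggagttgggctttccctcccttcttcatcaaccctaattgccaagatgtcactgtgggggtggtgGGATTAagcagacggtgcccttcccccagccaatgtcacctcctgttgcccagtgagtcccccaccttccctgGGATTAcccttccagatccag
Of 28 RefSeq windows for 18 of the 21 photoreceptor genes called lower, 5 (17.9%) held TAATCC on either strand, against 7.06% of all 32851 windows and 5.84% of those of tested genes. Windows reach from 250 bases before to 50 after a start. A match describes the letters only, list members not called were not read, and binding was not measured.

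Genes of the neurogenic step, at which progenitors become postmitotic neurons, mostly fell. Of 17 tested, 14 were called lower and 1 higher, with a median of -2.12 when the 1 gene with no reads at day 12 is set to its bound. Neurod4, a helix-loop-helix factor of newborn retinal neurons, went from 557, 522 and 622 to 46.8, 98.8 and 33.3 CPM (-3.25 ± 0.44, edgeR adjusted p = 1.39e-06). Neurog2, a proneural factor of dividing progenitors, changed by -1.73 ± 0.34. The Notch ligand Dll1 was at 31.3, 29.7 and 37 CPM and then 4.67, 8.7 and 4.33 CPM (-2.46 ± 0.31, edgeR adjusted p = 5.25e-07), and Dll4 at 12.8, 10.3 and 15.7 and 0.583, 1.09 and 0.155 CPM (-4.38 ± 0.56, edgeR adjusted p = 6.86e-07). Neither ligand's groups overlapped. Sox4, Hes6, Insm1, Btg2, Dcx (doublecortin), Dll3 and Mfng were lower too. Atoh7, the factor of ganglion cell genesis, had no reads at day 12 and was at least 1.70-fold lower, taking the floor as 3 counts. The exception was Gadd45g, a growth arrest gene, at 17.6, 15.4 and 16.7 and then 27.5, 21.6 and 37.7 CPM (0.81 ± 0.24, edgeR adjusted p = 0.00865). Sox11 and Olig2 did not pass. Leaving out any one of the 6 libraries left 13 or 14 members called lower. Without replicate 2 of day 5, or without replicate 3 of day 12, 0 members were called higher, so Gadd45g lost its call in those fits.

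Progenitor genes split in both directions. Of 14 tested, 4 were higher and 5 lower, with a median of -0.24. Pax6, a paired box gene of retinal progenitors, was at 394, 393 and 398 CPM at day 5 and 348, 363 and 362 CPM at day 12, a change of -0.14 ± 0.14 that did not pass (edgeR adjusted p = 0.425). Rax, the eye field gene, fell from 81.4, 93 and 99.4 to 23.6, 26.1 and 18.6 CPM (edgeR adjusted p = 2.23e-08). Fabp7, the brain fatty acid binding protein, fell from 199, 200.4 and 299 to 16.7, 9.86 and 5.33 CPM (-4.48 ± 0.49, edgeR adjusted p = 6.88e-08), and Sfrp2, a secreted Wnt antagonist of early progenitors, changed by -4.27 ± 0.46. Each of these had all day 12 libraries below day 5. Nestin (Nes) rose from 148, 142 and 156 to 837, 730.0 and 1038 CPM (2.55 ± 0.29, edgeR adjusted p = 9.53e-08). Lhx2, Sox2 and Six3, homeobox and SOX factors of the optic vesicle, rose by 1.07, 0.83 and 0.54 on the log2 scale. Progenitor transcription factors were thus still read at day 12, beside lower neurogenic genes.

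Markers of other retinal neurons were mostly lower. Of 15 ganglion cell genes, 10 were called lower and 0 higher (median -1.79), and 12 and 1 without replicate 2 of day 12. Pou4f1, a POU factor of ganglion cells, was at 20.9, 12.9 and 15.1 CPM and then 0.583, 0.621 and 0.696 CPM (-4.65 ± 0.64, edgeR adjusted p = 2.11e-06). The neurofilament gene Nefl changed by -2.35 ± 0.57, and Rbpms, Isl1, Thy1, Nefh and Eomes did not pass. Of 17 amacrine and horizontal cell genes, 8 were lower and 1 higher (median -1.34), and 10 were lower without replicate 2 of day 12. Calb2 (calretinin) went from 49.5, 36.9 and 36 to 4.32, 8.31 and 1.08 CPM (-3.15 ± 0.58, edgeR adjusted p = 9.41e-05), and its groups did not overlap. Tfap2b and Tfap2c, AP-2 factors of amacrine cells, changed by -2.27 ± 0.72 and -2.78 ± 0.70; the call for Tfap2b was lost without replicate 3 of day 12 (edgeR adjusted p = 0.0647). Ptf1a, which directs cells to these fates, had no reads at day 12 and was at least 3.02-fold lower. Prox1, a homeobox gene of horizontal cells that dividing cells also use, was the member called higher, from 111, 107 and 103 to 174, 193 and 232 CPM (0.90 ± 0.14).

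Synaptic genes were mostly lower too. Of 20 tested, 16 were called lower and 1 higher (median -1.32). Snap25, a SNARE protein of vesicle fusion, was at 318, 379 and 324 CPM and then 68.8, 133 and 31.1 CPM (-2.13 ± 0.57, edgeR adjusted p = 0.00375). No library of day 12 reached day 5. Sv2b and Cplx3, proteins of photoreceptor and bipolar terminals, changed by -2.28 ± 0.59 and -2.24 ± 0.45, and synaptophysin (Syp) by -2.14 ± 0.52. Without replicate 3 of day 12, 9 synaptic genes were called lower.

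Bipolar genes had no common direction. Of 17 tested, 4 were higher and 3 lower, near the shares of all genes (24.6% and 18.6%), with a median of 0.74. Trpm1, the channel of ON bipolar cells, was at 2.47, 1.95 and 1.92 CPM and then 13.8, 47.7 and 10.8 CPM (3.51 ± 0.66, edgeR adjusted p = 0.000112). All 3 day 12 libraries were above day 5, and replicate 2 was more than 3-fold above the others. Gpr179, a protein of the same signalling complex, was at 12.2, 6.75 and 8.08 and 19.5, 61.3 and 14.6 CPM (1.83 ± 0.53, edgeR adjusted p = 0.00657). Tmem215 and Pcp2 changed by -2.69 ± 0.60 and -2.49 ± 0.56. Without replicate 2 of day 12, 1 member was called higher, the median was -0.13 and Gpr179 did not pass (edgeR adjusted p = 0.162). That library therefore carried the higher levels of both photoreceptor and bipolar genes at day 12.

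Glial and reactive genes rose in part. Among 15 Muller glia genes, 9 were higher and 0 lower (median 0.81). Without replicate 2 of day 12 these numbers were 7 and 2, and in the 6 libraries alone 6 and 1. Clu (clusterin) rose from 31.9, 17 and 13.8 to 164, 166 and 190.0 CPM (3.06 ± 0.32, edgeR adjusted p = 3.71e-08), and Cd9, a tetraspanin, from 10.2, 8.45 and 10.3 to 35.3, 34.9 and 30.5 CPM (1.80 ± 0.20, edgeR adjusted p = 1.05e-07). In both cases the groups were separate. Abca8a, a lipid transporter, changed by 3.12 ± 0.54 and Dkk3 by 1.55 ± 0.18. The enzymes and carriers that define mature Muller cells did not pass: Glul (glutamine synthetase) was at 148, 146 and 121 and 154, 134 and 172 CPM (0.15 ± 0.18, edgeR adjusted p = 0.538), and Rlbp1, the retinal binding protein, at 97.5, 74 and 70.9 and 41, 65.9 and 36.5 CPM (edgeR adjusted p = 0.0714). Aqp4 did not pass either. Among 12 astrocyte and reactive glia genes, 8 were higher and 1 lower (median 2.69). Gfap rose from 8.69, 3.1 and 1.86 to 141, 77 and 40.4 CPM (4.26 ± 0.51, edgeR adjusted p = 4.48e-07). The day 12 libraries of Gfap spanned more than 3-fold, all above day 5. Pax2, a factor of optic nerve astrocytes and the optic stalk, rose from 7.88, 4.5 and 8.72 to 129, 91.5 and 198 CPM (4.31 ± 0.39, edgeR adjusted p = 4.8e-09), and Cd44, a hyaluronan receptor, by 3.76 ± 0.29. Slc1a2, a glutamate carrier that cones and bipolar cells also express, was the member called lower (-2.38 ± 0.47). The astrocyte markers Aldh1l1 (0.816, 0.311 and 0.696 CPM at day 12) and S100b (1.63, 1.48 and 1.47 CPM) did not pass.

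Part of the cell cycle genes were modestly higher at day 12. Among 21 genes of mitosis, 16 were called higher and 0 lower (24.6% of all genes were called higher), with a median of 0.91. Mki67, the proliferation antigen Ki-67, was at 331, 423 and 462 CPM at day 5 and 699.7, 737 and 1006 CPM at day 12 (1.01 ± 0.29, edgeR adjusted p = 0.00692). Plk1, a mitotic kinase, was at 7.62, 9 and 9.59 and then 19.1, 19.8 and 27.7 CPM (1.35 ± 0.30, edgeR adjusted p = 0.000612). Both genes had every day 12 library above every day 5 library. Cenpe (a kinetochore motor), Kif20a (a spindle kinesin) and Cdk1 (the mitotic kinase that binds cyclin B) changed by 1.33 ± 0.29, 1.29 ± 0.33 and 1.28 ± 0.32. Ccnb2, Aurkb, Bub1b, Birc5 and Nusap1 had estimates between 0.52 and 0.70 and did not pass. Among 22 genes of DNA replication, 9 were higher and 0 lower (median 0.57). Rrm2, the ribonucleotide reductase subunit of S phase, was at 18.4, 21.1 and 19.1 and then 41.3, 38.8 and 52.3 CPM (1.18 ± 0.31, edgeR adjusted p = 0.00314), and Mcm3, a subunit of the replicative helicase, at 24.6, 24 and 30.2 and 50.5, 48.8 and 62.6 CPM (1.04 ± 0.27, edgeR adjusted p = 0.00281). Day 12 was above day 5 in every library for both. Pcna, Mcm6 and Mcm7 did not pass, with 0.41, 0.56 and -0.15.

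These counts rested on single libraries. Without replicate 1 of day 5, or without replicate 3 of day 12, 7 mitotic and 2 replication genes were called higher. Without replicate 2 or 3 of day 5, 5 replication genes were. Mki67 and Tk1 lost their calls without replicate 1 of day 5 and without replicate 3 of day 12 (edgeR adjusted p up to 0.0581 and 0.108), and Mcm2 lost its call in these same fits and without replicate 2 of day 5 (edgeR adjusted p up to 0.066, without replicate 3 of day 12).

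Promoters of the mitotic genes were read for motifs already known in such genes. Genes of late cell cycle are known to carry paired CCAAT boxes, bound by the factor NF-Y, and a CHR element with the core TTTGAA. Windows of 200 bases before the RefSeq start (GRCm38.p6, all on the minus strand) are shown for cyclin B1, its kinase and an activator of the anaphase complex, with CCAAT or its reverse complement ATTGG, and TTTGAA, in capitals. They lie at chr13:100786487-100786686 (Ccnb1), chr10:69352913-69353112 (Cdk1) and chr4:118437344-118437543 (Cdc20).
Ccnb1: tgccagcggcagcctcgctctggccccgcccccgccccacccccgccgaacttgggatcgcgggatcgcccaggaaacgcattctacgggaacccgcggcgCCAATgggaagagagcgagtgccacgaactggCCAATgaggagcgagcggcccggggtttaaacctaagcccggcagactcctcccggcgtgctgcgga
Cdk1: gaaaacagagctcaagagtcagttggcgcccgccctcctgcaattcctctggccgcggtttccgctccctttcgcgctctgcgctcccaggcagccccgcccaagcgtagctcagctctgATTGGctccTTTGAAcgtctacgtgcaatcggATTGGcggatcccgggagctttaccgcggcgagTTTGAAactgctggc
Cdc20: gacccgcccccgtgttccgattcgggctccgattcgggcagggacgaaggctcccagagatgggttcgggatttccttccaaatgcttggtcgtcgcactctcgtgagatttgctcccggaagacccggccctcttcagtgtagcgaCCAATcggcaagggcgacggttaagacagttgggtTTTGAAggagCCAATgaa
The boxes begin at -99 and -67 in Ccnb1, at -80 and -48 in Cdk1, and at -53 and -8 in Cdc20, and TTTGAA begins at -71 and -15 in Cdk1 and at -18 in Cdc20. Ccnb1 shows no TTTGAA in this window. Levels of Ccnb1 were 9.42, 13 and 14.2 CPM at day 5 and 24.6, 25.4 and 27.3 CPM at day 12 (1.07 ± 0.35, edgeR adjusted p = 0.0147), and those of Cdc20 7.62, 8.82 and 9.53 and 14.3, 16.8 and 19.5 CPM (0.96 ± 0.29, edgeR adjusted p = 0.0095). Among the mitotic genes called higher, 12 of 16 had a window in the table, and 12 of these held CCAAT on either strand (37.4% of all 32851 windows, 37.6% of those of tested genes) and 9 held TTTGAA (75.0%, against 17.9% and 11.9%). Among 7 windows of replication genes called higher, 6 held CCAAT and 1 TTTGAA, and 3 (42.9%) held each of the E2F-type motifs TTCCCGC (4.6% of all windows, 7.83% of those of tested genes) and TTGGCGC (2.45% and 4.08%). The motifs may overlap one another, and no binding was measured. List members not called were not read, so these shares describe the kind of gene listed and not the change between the days.

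Genes at the entry to the cycle rose too, cyclins and inhibitors alike. Of 17 cyclins and inhibitors of G1, 11 were higher and 0 lower (median 1.12). Ccnd2 (cyclin D2) rose from 105, 85.9 and 88.9 to 892, 817 and 1310.0 CPM (3.43 ± 0.35, edgeR adjusted p = 2.23e-08). Among the inhibitors, Cdkn1a (p21) rose from 15.6, 8.57 and 9.59 to 66.5, 60 and 86.3 CPM (2.66 ± 0.37, edgeR adjusted p = 1.89e-06), and Cdkn2a, which encodes p16 and p19ARF, from 0.935, 0.426 and 1.4 to 6.65, 3.34 and 5.8 CPM (2.49 ± 0.36, edgeR adjusted p = 3.28e-06). The groups did not overlap for any of these. Cdkn2b (p15) changed by 2.16 ± 0.29, while Cdkn1b (p27) and Cdkn1c (p57) did not pass, at -0.22 and -0.21. Every one of 10 tested p53 target genes was called higher (median 1.40). Phlda3, an inhibitor of Akt, rose from 3.54, 2.43 and 3.14 to 26.8, 27.9 and 33.2 CPM (3.27 ± 0.39, edgeR adjusted p = 2.5e-07), and Ccng1 (cyclin G1) from 83.2, 66.3 and 66.5 to 315, 284 and 372 CPM (2.17 ± 0.26). The smallest estimate was that of Trp53inp1, 0.61 ± 0.13. Leaving out a library left 9 or 10 of them called.

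The largest group changes were in contractile and matrix genes. All 12 pericyte and smooth muscle genes were called higher, with a median of 3.92. Acta2, smooth muscle actin, rose from 59.3, 33.7 and 48 CPM to 864, 855 and 1406 CPM (4.47 ± 0.49, edgeR adjusted p = 7.08e-08). Myh11, the smooth muscle myosin heavy chain, was at 1.4, 0.365 and 0.639 CPM at day 5 and 30.1, 24.5 and 28.1 CPM at day 12 (5.11 ± 0.50, edgeR adjusted p = 1.43e-08). Cnn1 (calponin) rose from 0.802, 0.79 and 1.16 to 30.2, 32.9 and 40.5 CPM (5.21 ± 0.54, edgeR adjusted p = 1.99e-07). In all of these the lowest day 12 library was more than 10-fold above the highest at day 5. Tagln, Lmod1 and Myl9, which bind or regulate actin and myosin, changed by 4.53 ± 0.51, 4.36 ± 0.41 and 4.19 ± 0.40. The pericyte marker Rgs5 was also called, though its groups overlapped, at 5.48, 0.851 and 1.16 and 20.1, 7.38 and 2.47 CPM, and Pdgfrb by 2.37 ± 0.55. Over the list the summed levels were 162, 103 and 136 CPM at day 5 and 1720, 1661 and 2605 CPM at day 12.

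Extracellular matrix genes rose with them. Of 23 tested, 20 were called higher and 0 lower (median 2.99). Fn1 (fibronectin) rose from 183, 126 and 165 to 1871, 1844 and 2730.0 CPM (3.76 ± 0.34, edgeR adjusted p = 5.11e-09). Lox, the enzyme that crosslinks collagen and elastin, rose from 9.15, 5.47 and 6.45 to 118, 132 and 169 CPM (4.32 ± 0.35, edgeR adjusted p = 1.5e-09). Both had wide gaps between the groups. Tnc (tenascin C), already at 367 ± 19.7 CPM (mean ± SD, n = 3) at day 5, reached 2918 ± 891 CPM. Ogn and Fmod, small leucine-rich proteoglycans, changed by 3.99 ± 0.70 and 3.89 ± 0.64, and laminin beta 1 (Lamb1) by 3.63 ± 0.35. Dcn, Lum and Postn did not pass, and Dcn and Lum were near or at the floor. Of 14 collagen genes, 10 were higher and 0 lower (median 2.86). Col8a1 rose from 23.2, 13.2 and 21.9 to 383, 351 and 423 CPM (4.31 ± 0.49, edgeR adjusted p = 1.32e-07), and Col12a1 from 14.2, 4.8 and 6.33 to 163, 92.8 and 122 CPM (3.90 ± 0.41). Col1a1, the main collagen of fibrous tissue, was at 27.4, 17 and 53.1 CPM at day 5 and 216, 244 and 230.1 CPM at day 12 (2.82 ± 0.55, edgeR adjusted p = 0.000172). Its day 5 libraries differed by about 3-fold among themselves, and all lay below day 12. Col3a1 (3.31 ± 1.04) lost its call without replicate 2 of day 5 (edgeR adjusted p = 0.0647). Col6a1, Col6a2, Col6a3 and Col15a1 did not pass.

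Transcription factors of mesenchyme, the loose connective tissue of the embryo, were higher in 9 of 12 tested and lower in 0 (median 2.54). When the 6 libraries were fitted alone, 5 were higher, counting members that this fit did not test as not called. Prrx1, a homeobox gene of limb and head mesenchyme, rose from 7.01, 5.17 and 15.3 to 158, 95.8 and 108 CPM (3.71 ± 0.47, edgeR adjusted p = 5.82e-07). Foxc1, a forkhead factor of periocular mesenchyme, rose from 2.21, 1.64 and 2.44 to 21.1, 9.86 and 8.81 CPM (2.63 ± 0.43, edgeR adjusted p = 1.95e-05), and Twist1 by 2.44 ± 0.48. Day 12 exceeded day 5 in every library for all of them. Zeb2 did not pass, at 295, 299.6 and 301 and 354, 322 and 320.0 CPM (0.16). Summed over the list, levels were 406, 399 and 430.3 CPM at day 5 and 713, 571 and 610.0 CPM at day 12. How much of the matrix and contractile change comes from such cells was not tested.

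**Figure D3:**
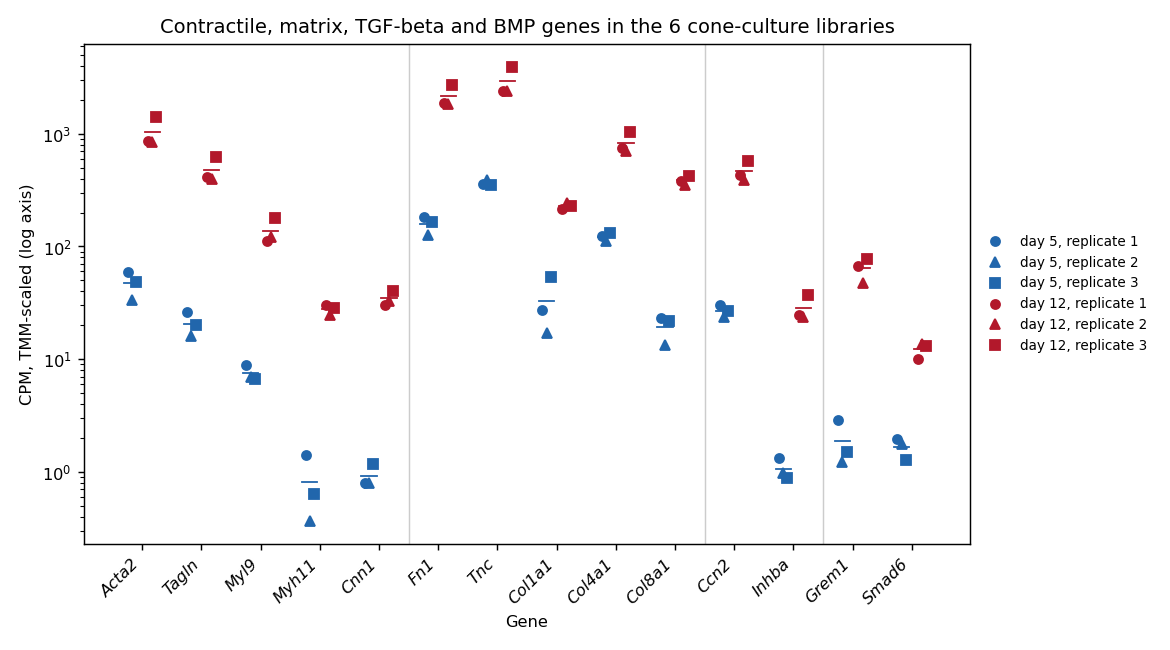
Level of 14 contractile, matrix and signalling genes in each library of the cone culture (CPM, log axis), blue at day 5 and red at day 12, with symbols for replicates 1 to 3 and a line at each group's mean. All red points lie above all blue points for every gene shown, from Acta2 (4.47 on the log2 scale) and Fn1 (3.76) to Grem1 (5.11).

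The pathways that COCO is known to block were followed through lists that mix target genes with ligands, receptors and antagonists, so list counts do not measure pathway activity. Of 16 genes on the TGF-beta list, 13 were higher and 1 lower (median 2.62). The rod culture, treated with taurine and retinoic acid instead, had 12 higher and 2 lower (median 1.70). The difference between the cultures was called for 1 gene of the list. Ccn2 (CTGF), a matricellular protein that TGF-beta induces, rose from 30.1, 23.5 and 26.7 to 435, 389.8 and 573 CPM (4.12 ± 0.37, edgeR adjusted p = 5.28e-09). Inhba, the activin A subunit, rose from 1.34, 0.973 and 0.872 to 24.7, 23.8 and 37.3 CPM (4.75 ± 0.53, edgeR adjusted p = 8.12e-08). No groups overlapped. The ligands Tgfb2 and Tgfb3 rose by 1.28 and 2.12, the latent binding protein Ltbp2 by 4.67 and the receptor Tgfbr2 by 2.80, while the receptor Tgfbr1 was lower (-0.53 ± 0.12). Skil and Pmepa1, feedback inhibitors in the same pathway, did not pass.

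Among 17 genes on the BMP list, which also holds ligands, a receptor and antagonists, 13 were higher and 1 lower (median 1.19). The feedback targets Id1, Id3 and Smad6 rose by 1.19 ± 0.29, 1.77 ± 0.33 and 2.89 ± 0.28. Smad6 was at 1.94, 1.76 and 1.28 CPM and then 10, 13.7 and 13 CPM (edgeR adjusted p = 1.37e-08), with a clear gap between the days. Grem1 (gremlin), a secreted BMP antagonist of the same family as COCO, rose from 2.87, 1.22 and 1.51 to 66.8, 47.5 and 77.8 CPM (5.11 ± 0.58, edgeR adjusted p = 1.18e-07). Chrdl1, another antagonist, rose from 17, 18.5 and 9.18 to 106, 102 and 163 CPM (3.06 ± 0.39, edgeR adjusted p = 6.94e-07). The ligand Bmp4 was near the floor at day 5, at 0.534, 0.243 and 0.349 CPM, and at 5.13, 3.42 and 5.88 CPM at day 12. Dand5, the gene of COCO itself, was the 1 member called lower, at 5.08, 6.26 and 5.11 and then 2.45, 2.64 and 2.09 CPM (-1.20 ± 0.28, edgeR adjusted p = 0.00124). Added protein is not seen in RNA, so this is the cells' own transcript. Bmp7, Bmpr1b and Nog did not pass.

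Genes on the Wnt list went both ways, 5 higher and 3 lower of 13 (median 0.74). Axin2, the usual readout of beta-catenin, was at 19.8, 21.2 and 18.9 and 18.4, 20.3 and 20.4 CPM (-0.02 ± 0.19, edgeR adjusted p = 0.944). Nkd1, an inhibitor induced by Wnt, fell from 24.2, 27.5 and 26.9 to 7.23, 4.35 and 4.87 CPM (-2.27 ± 0.20, edgeR adjusted p = 3.55e-09), and Lgr5 by -1.26 ± 0.39. Tcf7 and Sfrp1 rose by 3.31 ± 0.48 and 2.63 ± 0.34. Of 12 Notch genes, 2 were higher and 6 lower (median -0.34, 3 lower without replicate 3 of day 12). Hes5, the Notch target of retinal progenitors, fell from 6.41, 6.81 and 10.5 to 0.816, 0.388 and 0.309 CPM (-4.04 ± 0.47, edgeR adjusted p = 1.78e-07). Jag1, a ligand, rose from 13.5, 12.3 and 13.5 to 108, 74.6 and 106 CPM (2.87 ± 0.33, edgeR adjusted p = 1.27e-07), and Notch2 by 1.56 ± 0.20. Of 12 retinoic acid genes, 4 were higher and 2 lower (median 0.65, 0.29 without replicate 3 of day 12), beside 24.6% and 18.6% of all genes. Cyp26a1, the enzyme that degrades retinoic acid, was at 12.9, 13.6 and 15.4 and then 5.48, 3.34 and 2.32 CPM (-1.96 ± 0.43), and the receptor Rarb at 4.94, 5.84 and 6.63 and 21.2, 18.7 and 22.9 CPM (1.85 ± 0.23, edgeR adjusted p = 3.34e-07).

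Genes of glycolysis and hypoxia tended lower, 8 of 15 called lower and 2 higher (median -0.67). Pfkp, a phosphofructokinase, was at 276, 221 and 196 CPM and then 39, 85.5 and 30.3 CPM (-2.16 ± 0.62, edgeR adjusted p = 0.00612). Pdk1, a kinase that inhibits pyruvate dehydrogenase and is induced by hypoxia, was at 48.4, 34.3 and 43.5 and 19.6, 16.7 and 11.1 CPM (-1.42 ± 0.30, edgeR adjusted p = 0.000351). The days did not overlap for either. Ndrg1, Ankrd37, Ldha, Vegfa, Bnip3 and Pkm were lower as well, from -1.76 to -0.67. Eno1, an enolase, rose from 757, 627 and 538 to 1181, 1238 and 1057 CPM (0.85 ± 0.18), and Adm (adrenomedullin) by 1.31 ± 0.32. Hk2, Slc2a1, Aldoa, Pgk1 and Egln3 did not pass.

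The same interval in the rod culture gave the comparison of the 2 inductions. There, 3318 genes (18.3%) were called, 2303 higher (12.7%) and 1015 lower (5.59%). The difference between the changes was called for 583 genes (3.21%): the cone change was above the rod change for 380 (2.09%) and below it for 203 (1.12%). Contractile and matrix genes rose in the rod culture too, with 10 of 12 (median 2.96) and 19 of 23 (median 2.53) called higher. On the TGF-beta list, 12 of 16 were called higher there and 2 lower (median 1.70). In each of these lists the difference was called for 1 gene, above the rod change. No gene of the cone, rod or shared photoreceptor lists was called as different between the cultures. Their median differences were -0.96, -1.92 and -1.78, and their medians within the rod culture -1.13, 0.06 and -0.47. With replicate 2 of cone day 12 left out, the numbers called below the rod change were 1, 2 and 5. Of 15 glycolysis and hypoxia genes, 9 were below the rod change, with a median difference of -1.76 and 9 higher within the rod culture (median 1.01). Hk2, a hexokinase, was at 3.48, 1.79 and 2.92 CPM at day 5 and 21.3, 30.6 and 12.5 CPM at day 12 in the rod culture (log2 change 3.00 ± 0.30, edgeR adjusted p = 1.79e-07), and at 33.1, 26.9 and 22.3 and 33.9, 28.8 and 30.9 CPM in the cone culture (0.19 ± 0.25, edgeR adjusted p = 0.577). The rod libraries of day 5 were below all other libraries of the comparison. For Pdk1 the rod change was 0.96 ± 0.29 and the difference -2.38 ± 0.42 (edgeR adjusted p = 0.00299), and for Pfkp 1.24 ± 0.62 and -3.40 ± 0.87 (edgeR adjusted p = 0.0336). Replicate 2 of rod day 12 stood apart, at 14.7, 163 and 18 CPM of Pfkp over the rod libraries of day 12 and at -11.9 on principal component 1 against 57.5 and 35.3 for the others. Without it, 2 of the list's genes were called below the rod change and the median was -1.06. With any one library left out, 2 to 11 of the list's genes were called below the rod change, and 1 in a fit to the 12 libraries alone, with medians from -2.12 to -1.06 over the left-out libraries. Without replicate 3 of cone day 12 the number was also 2, and without replicate 1 of cone day 5 or replicate 2 of rod day 5 it was 3.

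Mitotic genes differed in the other direction, with 6 of 21 above the rod change, a median difference of 1.28 and a median of -0.29 within the rod culture. Plk1 was at 24, 17.7 and 22.4 and 24.2, 11.5 and 19.5 CPM in the rod culture, a change of -0.21 ± 0.29, and the difference between cultures was 1.56 ± 0.41 (edgeR adjusted p = 0.0374). These calls were fragile: 0 mitotic genes were called in the fit to the 12 libraries alone and without any one of 9 libraries, 1 without replicate 2 of rod day 5, 8 without replicate 2 of cone day 12, and 17 without replicate 1 of rod day 12. Among 22 replication genes 3 were called, including Rrm2 (1.71 ± 0.43, edgeR adjusted p = 0.032) and Mcm3 (1.41 ± 0.38, edgeR adjusted p = 0.0405). For replication genes the number was 0 in the fit to the 12 libraries alone and without any one of 9 libraries, 2 without replicate 2 of rod day 5, 7 without replicate 2 of cone day 12 and 14 without replicate 1 of rod day 12.

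**Figure D4:**
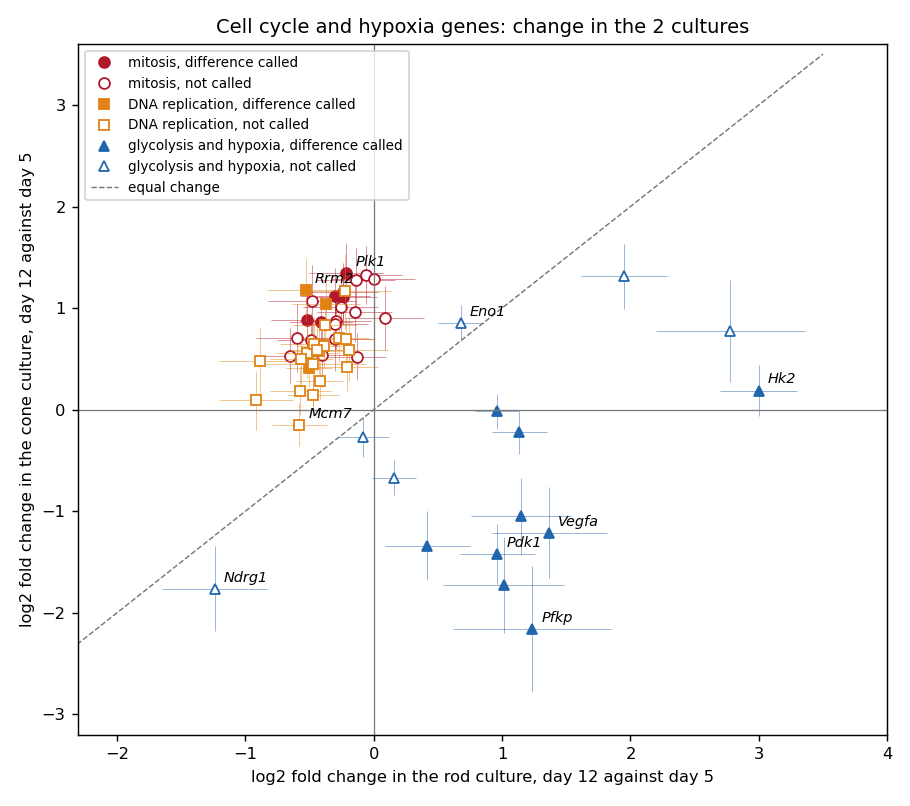
Log2 fold change from day 5 to day 12 in the cone culture (y axis) against the rod culture (x axis) for genes of mitosis, DNA replication, and glycolysis and hypoxia; bars are SE, filled symbols mark genes whose difference was called, and the dashed line marks equal change. All 21 mitotic and 22 replication genes lie above the line and most glycolysis and hypoxia genes below it, as Pdk1 (cone -1.42, rod 0.96) and Hk2 (cone 0.19, rod 3.00) show.

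On the BMP list, 3 genes rose more in the cone than in the rod culture, and this number was 3 or 4 with any one library left out. Grem1 was at 1.91, 2.36 and 3.54 and 6.14, 1.98 and 2.09 CPM in the rod culture (0.35 ± 0.60, edgeR adjusted p = 0.741), and the difference was 4.76 ± 0.83 (edgeR adjusted p = 0.00299). The others were Smad6 (1.93 ± 0.37, edgeR adjusted p = 0.00754) and Atoh8, a helix-loop-helix gene that BMP induces (2.25 ± 0.35, edgeR adjusted p = 0.0015). For Atoh8 the rod libraries were already at 81, 55.2 and 71.8 CPM at day 5, above the 51.7, 45.2 and 39.6 CPM that the cone culture held at day 12. Ccnd2 also rose more in the cone culture (2.50 ± 0.45, edgeR adjusted p = 0.00424). Olig2, a factor of neurogenic progenitors and oligodendrocytes, was at 8.89, 5.35 and 8.83 and 16.4, 7.69 and 4.79 CPM in the cone culture, which did not pass, and at 3.93, 3.36 and 3.75 and 0.286, 0 and 0.144 CPM in the rod culture, a difference of 4.91 ± 0.75 (edgeR adjusted p = 0.0015). The rod libraries of day 12 were near or under the floor of 3 counts for Olig2, so the size of this difference depends on the fit.

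Genes with the largest differences between the cultures were named by rule. Above the rod change stood Tbx20 (4.82 ± 0.99), Grem1, Crybg1 (4.32 ± 0.66), Itgb4 (3.79 ± 0.63) and Sema3d (3.63 ± 0.64). Itgb4, an integrin of epithelial anchoring sites, rose in the cone culture from 1.14, 0.547 and 0.697 to 17.4, 11.8 and 23.3 CPM, whereas the rod libraries were at 17, 11.8 and 22.3 and 18.5, 41 and 21.8 CPM, so the cultures overlapped at day 12. Below it stood Ndufa4l2 (-7.30 ± 1.61), a hypoxia-induced mitochondrial protein, Slc16a3 (-4.77 ± 1.02), the lactate exporter MCT4, Chrna6 (-3.71 ± 0.92), Rgs11 (-3.51 ± 0.79) and Ush1c (-4.65 ± 1.29). All 5 of the latter, Tbx20 and Sema3d lost this call in the fit to the 12 libraries alone, with edgeR adjusted p up to 0.261 for Ndufa4l2 and 0.318 for Ush1c over all count-based alternatives.

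Counting called genes whose log2 CPM averaged 1 or more and whose days did not overlap, the 10 largest rises in the cone culture were Igfbp7, Col4a4, Tnfrsf11b, Anxa1, Lif, Cnn1, Myh11, Grem1, Sema3d and Gxylt2, between 4.98 and 5.37 on the log2 scale. Anxa1 (annexin A1) rose from 4.88, 1.4 and 4.07 to 119.7, 118 and 150.4 CPM (5.23 ± 0.47, edgeR adjusted p = 5.56e-09), and Lif, the cytokine that Muller cells release after injury, from 1.14, 0.912 and 0.697 to 27.3, 24.7 and 50.8 CPM (5.22 ± 0.55, edgeR adjusted p = 3.46e-08). Igfbp7, a secreted binding protein, rose from 2.07, 0.851 and 1.57 to 54.8, 47.5 and 83 CPM (5.37 ± 0.43). Under the same filter, the 10 largest falls were Ush1c, Otog, Tcp11, Epha8, Prdm1, Col17a1, Pou4f1, Fabp7, Robo3 and Ccdc60, between -5.60 and -4.45. Otog (otogelin) was at 189, 86.5 and 123 CPM and then 2.68, 3.88 and 2.94 CPM (-5.37 ± 0.55, edgeR adjusted p = 2.4e-08). Robo3, a guidance receptor of crossing axons, was at 39.6, 36.8 and 55.4 and then 1.87, 2.64 and 1.39 CPM (-4.47 ± 0.64, edgeR adjusted p = 3.59e-06). Sox15, a SOX factor, was at 0.334, 0.608 and 1.1 and 0.35, 0.544 and 0.309 CPM and did not pass (-0.75 ± 0.70, edgeR adjusted p = 0.405).

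Levels before and after the interval are given as a description. Crx averaged 464 CPM in cone-primed cells at day 0, 638 ± 60.7 CPM at day 5 (± SD, n = 3), 67.2 ± 53.4 CPM at day 12, then 24.2 and 8.65 CPM at days 21 and 35. Fabp7 averaged 274 CPM at day 0 and 0.477 CPM at day 35. Acta2 (0.159 CPM at day 0) and Fn1 (74.2 CPM) were at 787 and 2741 CPM at day 21. Every day 12 library lay above this day 21 level for Acta2 and below it for Fn1. Mki67 averaged 576 CPM at day 0, 405 ± 67.2 at day 5, 814 ± 167 at day 12, and 379.6 and 222 CPM afterwards, so day 12 was its highest point. Pfkp was highest at day 5, with 60 CPM at day 0, 231 ± 40.8 at day 5 and 51.6 ± 29.7 at day 12.

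**Figure D5:**
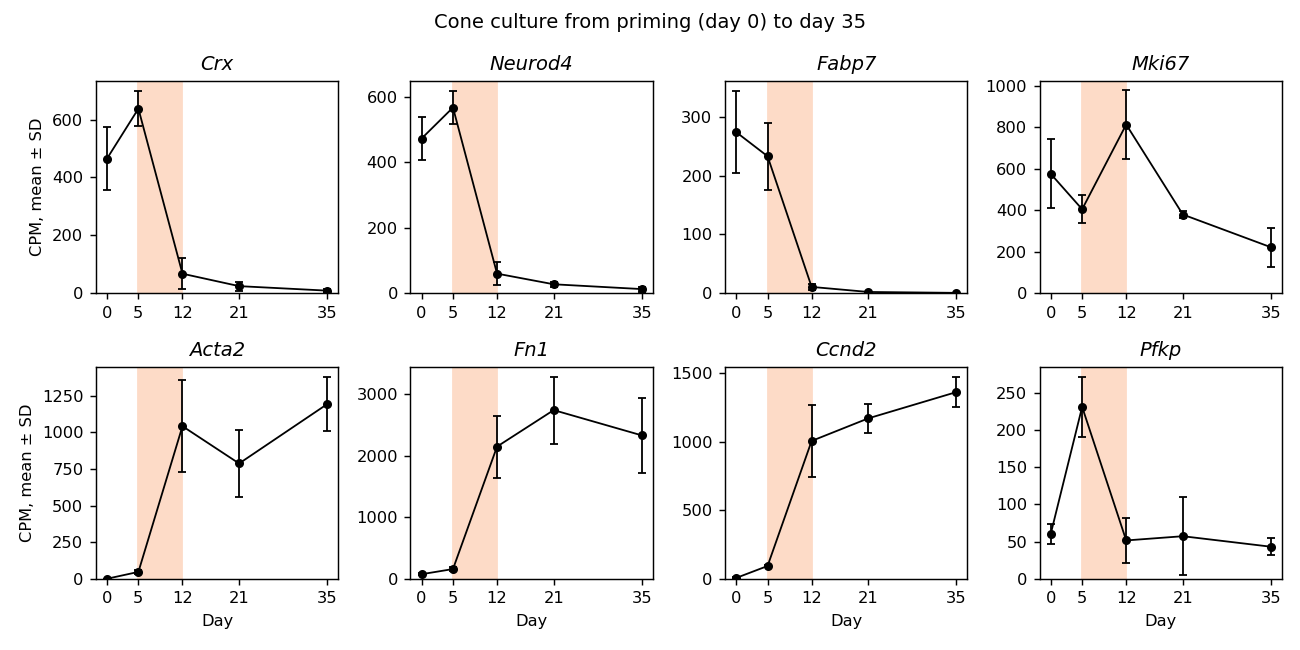
Level of 8 genes in the cone culture (CPM, linear axis from 0; points are means of 3 libraries, bars SD) at day 0 (cone-primed cells) and days 5, 12, 21 and 35, with the interval from day 5 to day 12 shaded. Crx, Neurod4 and Fabp7 drop within the shaded interval, Acta2, Fn1 and Ccnd2 rise within it, and Mki67 peaks at day 12 (mean 814 ± 167 CPM, SD).

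Markers of tissues next to the retina were read in the same libraries. Lens genes were higher in 7 of 8 tested (14 listed, median 2.79). The number was 4 without replicate 2 of day 5, and 4 in the 6 libraries alone, where members not tested count as not called. Cryab, a small heat shock protein that glia also express, rose from 6.88, 6.87 and 4.3 to 79.1, 90.8 and 182 CPM (4.29 ± 0.39) and made up most of the list's summed level (7.27 to 11.1 CPM at day 5, 94.5 to 202.7 CPM at day 12). Crybb3, another crystallin on the list, rose by 2.84 on the log2 scale (edgeR adjusted p = 7.21e-07) and was called in all 15 count-based alternatives. Lim2 and Foxe3, which define lens, had 0 counts in all 6 libraries. Microglia genes were called higher in 3 and lower in 0 of 14 tested, near the 24.6% of all genes (summed 18.5 to 33.7 CPM at day 5 and 30.6 to 94.6 CPM at day 12). Of these 14, 13 had estimates above 0 and 1 below (median 1.06). Without replicate 1 of day 12 the median was 0.35 over 16 genes tested. The defining genes Aif1 and P2ry12 had too few reads to be tested. Of 5 tested endothelial genes (10 listed; summed 287 to 334 CPM at day 5 and 199 to 279.8 CPM at day 12), Kdr, which progenitors also express, held most, at 282, 327 and 279.8 and 184, 255 and 266 CPM (edgeR adjusted p = 0.292), and Tie1 was at 0 throughout. Pigment epithelium genes were higher in 1 and lower in 1 of 7 (summed 28.8 to 41.3 and 25.3 to 25.6 CPM), with Rpe65 and Mlana at 0. Of 6 tested oligodendrocyte lineage genes, 2 were higher and 2 lower (summed 73.1 to 96.5 and 44.8 to 72.3 CPM), and Mog was at 0. What part such cells have in the contractile, matrix and glial changes was not tested.

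The deposited TPM values disagreed with the counts for part of these genes. Of 10121 genes with a mean count over 100, 1824 to 3313 per compared library were listed at a TPM of 0 while holding over 50 counts. On TPM with a pseudocount of 1, the direction was the opposite for Igfbp7, Col4a4, Itgb4, Crybg1, Rarb, Tcf7, Opn1sw, Mcm2, Mcm3, Slc16a3 and 9 further named genes, so these directions hold for the counts.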

How the data were processed

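RNA was sequenced from 33 libraries (11 groups of 3), made with pico-input extraction and low-input library kits, per the labels' protocols. The authors deposited a table of counts per gene and a table of TPM, FPKM and read coverage per library; FPKM and coverage were in no test. Per the submitters' processing notes, HISAT2, StringTie, HTSeq and GRCm38 were used; their roles, versions and the strand setting are not given in the sources used here, so overlapping and antisense genes cannot be told apart. The 5 summary lines of each count table were left out. Of 47729 genes, 47224 were matched to GENCODE M21 symbols.

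Genes passing filterByExpr (minimum count 10) were fitted over all 33 libraries with edgeR 4.0.16 in R 4.3.3 (TMM, quasi-likelihood, common biological coefficient of variation 0.213), which gives all groups 1 estimate of spread. SE was taken from the fold change and its F statistic. DESeq2 1.42.0, limma 3.58.1 (voom), other filters and scalings, a replicate block, the compared libraries alone, each library left out and TPM were alternatives. Same-numbered libraries of the cone days were checked and correlated weakly in their deviations from group means, which does not settle whether the numbers pair them. In simulated data for the comparison of days (17907 genes tested), 100 genes were changed 2-fold, 100 were changed 4-fold and the rest were left unchanged. There, 59% of 2-fold and 83% of 4-fold changes were recovered with 5 false calls. In the real data 43.2% of genes were called, so these rates need not hold for them.

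Named genes were a fixed set, the 10 largest rises and falls and the 5 largest differences between cultures in each direction among called genes (mean log2 CPM of at least 1, no overlap, no provisional Gm or Rik symbol), and up to 4 called members per list of that level with the largest changes. A few genes chosen this way were left out of the text without replacement. Other list members are given by value to account for their list. The members and lists were chosen with earlier results of these data known. A floor of 3 counts covers counting error only. Promoter windows are RefSeq, GRCm38.p6.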

Additional observations from a re-analysis of the deposited data

Results flagged for a closer look

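For 35 named genes, the change from day 5 to day 12 differed between the cone and the rod culture by the interaction test in edgeR at an adjusted p under 0.05. Values are the cone minus the rod log2 change.

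Signalling genes above the rod change were Grem1 (4.76), Atoh8 (2.25), Smad6 (1.93), Rarb (1.56), Sema3d (3.63) and Tnfrsf11b (3.28), and Nkd1, an inhibitor of Wnt signalling, stood below it (-1.64). Transcription factors above it were Olig2 (4.91), Tbx20 (4.82), Pax2 (2.89), Foxp1 (1.57) and Nfib (1.02), while the eye field gene Rax was below it (-1.29). Cell cycle genes, all above it, were Ccnd2 (2.50), Cdkn2a (2.33), Rrm2 (1.71), Plk1 (1.56) and Mcm3 (1.41). Matrix, adhesion and contractile genes above it were Itgb4 (3.79), Col4a4 (3.33) and Myh11 (2.85). Others above it were Crybg1 (4.32), Gxylt2 (2.12), B2m (1.32) and Peg3 (1.12).

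Genes of glycolysis and hypoxia below the rod change were Ndufa4l2 (-7.31), Slc16a3 (-4.77), Pfkp (-3.40), Ankrd37 (-2.74) and Pdk1 (-2.38). Others below it were Ush1c (-4.65), Chrna6 (-3.71), Rgs11 (-3.51), Otog (-3.41) and Lss (-0.786). In the fit to the 12 libraries alone, 25 of the 35 calls were lost; those of Crybg1, Olig2, Atoh8, Nkd1, Itgb4, Foxp1, Grem1, Ccnd2, Smad6 and Rax were not. With each of the 12 libraries left out in turn, 14 of the 35 were called every time, and 9 were called both there and in the 12 libraries alone (the same genes without Rax).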

How the results depend on the processing

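The number of genes called between the days stayed within 1.5 times of 7840 under every count-based alternative: 7920 with DESeq2-type size factors in edgeR, 7161 with no filter on low counts, 7413 in the 6 libraries alone, 8120 by DESeq2, and 6387 to 7851 with 1 library left out, lowest without replicate 3 of cone day 12. On the deposited TPM it was 1366 and 896 (pseudocounts 1 and 0.1). Deviations from group means correlated weakly between same-numbered libraries of the cone days (0.04, 0.189 and 0.106). Differently numbered libraries gave -0.193 to 0.089. Replicate 2 had the highest summed level of shared photoreceptor genes at both days. Whether the numbers mark a shared source is therefore not settled. A replicate block gave 7962 genes, and 7423 in the 6 libraries alone, a fit chosen after seeing the data. The rod count was 965 in its libraries alone, 6955 by voom, 184 and 102 on TPM, and 2059 to 4540 with 1 library left out. The difference between cultures depended most on the processing: 67 genes in the 12 libraries alone, 1229 by DESeq2, 2379 by voom, 47 and 31 on TPM, and 84 to 2087 with 1 library left out (lowest without replicate 3 of cone day 12, highest without replicate 1 of rod day 12). Lists not named elsewhere whose counts moved over 1.5 times were bipolar genes (4 higher, 2 in the 6 libraries alone and 2 by voom), Notch genes (2 higher, 4 in the 6 libraries alone, by voom and with the block), imprinted genes (3 higher, 5 in the 6 libraries alone) and early temporal genes (1 lower, up to 3). List members called on TPM numbered 87 and 60. In all these cases the cause was not tested.

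List medians that changed sign on TPM (pseudocount 1 and 0.1) were those of DNA replication (-0.042, pseudocount 0.1 only), G1 cyclins and CDK inhibitors (-0.106 and -0.200), bipolar cell (-0.226 and -0.271), microglia (-0.294 and -0.770), retinoic acid (-0.438 and -1.524), Wnt response (-0.152 and -0.738), interferon and complement (-0.190 and -0.850), cholesterol synthesis (-0.376 and -0.858) and imprinted growth (-0.003 and -0.005). On counts, the cholesterol median crossed 0 with other size factors (-0.004), a filter at 1 CPM (-0.013), scaling without mitochondrial and the 10 highest genes (-0.032), the 6 libraries alone (-0.020, and -0.005 with the block), DESeq2 (-0.004), and without replicate 2 or 3 of cone day 5 (-0.123 and -0.049); with 1 library left out, it reached 0.065. The bipolar median was -0.126 without replicate 2 of cone day 12 and up to 0.905 with another library left out, and that of pigment epithelium 0.054 at a filter of 1 CPM.

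Named genes whose log2 change between the days had the other sign on TPM were Igfbp7 (-0.969 and -1.13), Col4a4 (-0.312 and -0.608), Itgb4 (-0.442 and -0.35), Crybg1 (-0.392 and -0.898), Rarb (-1.18 and -1.32), Tcf7 (-0.136 and -0.255), Nfix (-0.248 and -0.252), Fmod (-0.135 and -0.701), H2-K1 (-0.212 and -0.904), Dhrs3 (-0.0682 and -0.201), Wls (-0.0598 and -0.406), Opn1sw (0.351 and 0.396), Mcm3 (-0.649 and -1.37), Lyz2 (-0.294 and -1.08), Grb10 (-0.00311 and -0.005), Mcm2 (-0.0415 and -0.217), Dner (0.245 and 0.3), Slc16a3 (0.335 and 0.384), Pou2f2 (0.34 and 1.05) and Cenpe (-0.272, pseudocount 0.1 only). For the difference between cultures these were Crybg1 (-0.175 and -0.498), Itgb4 (-1.45 and -2.10), Slc16a3 (0.342 and 0.371) and Ush1c (0.0223 and 0.0827). On counts with 1 library left out, the log2 fold change of Glul ran from -0.0129 (without replicate 3 of cone day 5) to 0.235 and the log2 fold change of Olig2 from -0.295 (without replicate 1 of cone day 12) to 0.61. Over the other count-based settings, 1424 values of named genes kept direction and call, 2 lost the call and 1 gained it; with 1 library left out, 914 kept both, 36 lost the call, 2 gained it and 2 reversed. For the differences between cultures, 73 kept both and 7 lost the call, and with 1 library left out 94 and 26.

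Depth limits genes under 3 counts, which is 0.174 to 0.350 CPM in the compared libraries.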

Other observations

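Most interferon and antigen presentation genes tested rose between day 5 and day 12 of the cone culture. Of 15 tested, 10 were called higher and 0 lower (median log2 change 1.88, 2.89 without replicate 1 of day 5). B2m, the light chain of MHC class I, rose from 9.42, 5.05 and 7.09 to 46, 43.3 and 53.1 CPM (2.73 ± 0.21, edgeR adjusted p = 8.71e-10), and H2-K1, a class I heavy chain, from 8.55, 4.62 and 4.71 to 19.2, 14.5 and 17.4 CPM (1.52 ± 0.27). No day 12 library of these genes reached down to day 5. The complement genes C3 and Serping1 did not pass. Of 12 immediate early and heat shock genes, 7 were higher, among them Fos (46.6, 38.1 and 34.9 to 153, 131 and 126 CPM, 1.78 ± 0.38) and Junb (10.8, 8.21 and 10.7 to 40.6, 28.6 and 29 CPM, 1.72 ± 0.22), while the heat shock genes Hspa1a and Hsp90aa1 did not pass.

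Genes of developmental timing also moved. Of 9 genes of late retinal progenitors, 6 were higher and 2 lower (median 0.84). The nuclear factor I genes Nfia, Nfib and Nfix rose by 1.04, 1.18 and 1.17, and Nfix went from 85.3, 85.6 and 87.5 to 184, 189 and 207 CPM (edgeR adjusted p = 6.33e-06). Casz1, a zinc finger factor of mid to late progenitors and rods, fell from 304, 419.8 and 334 to 46.8, 118 and 48.9 CPM (-2.31 ± 0.54, edgeR adjusted p = 0.00114). Of 12 early and oncofetal genes, 5 were higher and 1 lower (median 0.26), and 2 were higher without replicate 3 of day 12. Hmga2, a chromatin protein of embryonic cells, rose from 7.62, 6.02 and 9.07 to 99.4, 73 and 129 CPM (3.73 ± 0.36, edgeR adjusted p = 9.5e-09). Igf2r and Peg3, from 10 imprinted genes of which 3 were higher (24.6% of all genes were), rose by 1.82 ± 0.21 and 1.54 ± 0.19. Cholesterol synthesis showed no common direction, with 3 of 16 higher and 3 lower (median 0.03).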
